A study of Mus musculus with 16 samples.

Results

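The genes described here are 10 components of interleukin-6 (IL-6) family signalling: the cytokines Il6, Osm, Lif and Il11, the receptor chains Il6ra, Il6st, Osmr and Lifr, the transcription factor Stat3 and its feedback inhibitor Socs3. They were taken by name, and all 10 had a row with a single gene symbol among the 19938 genes so measured. A gene is represented by its row with the highest mean over the arrays. RNA came from 7 mouse liver samples labelled Pdgf-c transgenic and 9 labelled wildtype, all of the C57BL/6 background and each measured on 1 array of the Affymetrix Mouse Gene 1.0 ST type. The transgene's product is a platelet-derived growth factor that acts on stromal cells, and the series asked about the part of liver stromal cells in tumour formation. The labels used here give neither the promoter that drives the transgene, nor the age of the mice, nor whether each sample is a different animal. The p-values therefore speak to sample-to-sample spread alone, which may be technical. The labels call the samples stromal cells, but the protocol describes RNA of the liver, and Alb, the albumin gene of hepatocytes, lay between 13.48 and 13.74 on the log2 scale on all arrays. Xist, which female cells express, lay between 3.16 and 3.85, and the Y-linked Eif2s3y between 8.70 and 9.39, with overlapping groups.

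Cytokines of the IL-6 family signal through receptor complexes that share the chain gp130, encoded by Il6st. IL-6 binds its own alpha chain, Il6ra, before engaging gp130. Oncostatin M pairs gp130 with Osmr, and leukaemia inhibitory factor pairs it with Lifr. Receptor-bound JAK kinases phosphorylate STAT3, which enters the nucleus and activates targets that include Socs3, whose product shuts the receptor down. In the liver the pathway is known for driving the acute phase response of hepatocytes and for its part in regeneration.

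The values are log2 intensities, each difference is transgenic minus wildtype with the standard error of the fit, and a gene is called where its adjusted p is under 0.05 (limma, Benjamini-Hochberg over all 35557 rows). The fit called 18.9% of all rows. Among genes it called 23.2%: transgenic arrays were higher in 12.1% of all genes and lower in 11.1%. Calls were more frequent among genes above the median of the table (33.8%) than among dimmer ones (8.75%). Since the median of the table was 5.26, the 4 cytokines counted as dim and the other 6 members as bright. Arrays correlated at r of 0.976 or more across all rows, and transgenic array 1 and wildtype array 9 were the ends of the second principal component, which held 11.5% of the variance.

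Of the 10 members, Osmr rose and Lifr fell, and the other 8 did not pass the test. The share called, 20%, was near the background. By brightness that is 2 of 6 bright members and 0 of 4 dim ones, but Osmr counted as bright only through its transgenic values. Its mean over all arrays was 5.28 and its wildtype mean 4.93, against the table median of 5.26. The split by brightness is therefore not independent of the Osmr difference. The median difference of the members was -0.04, as it was over all genes (-0.04). In 1 of the 10, Osmr, the groups did not overlap, against 9.08% of all genes.

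**Figure D1:**
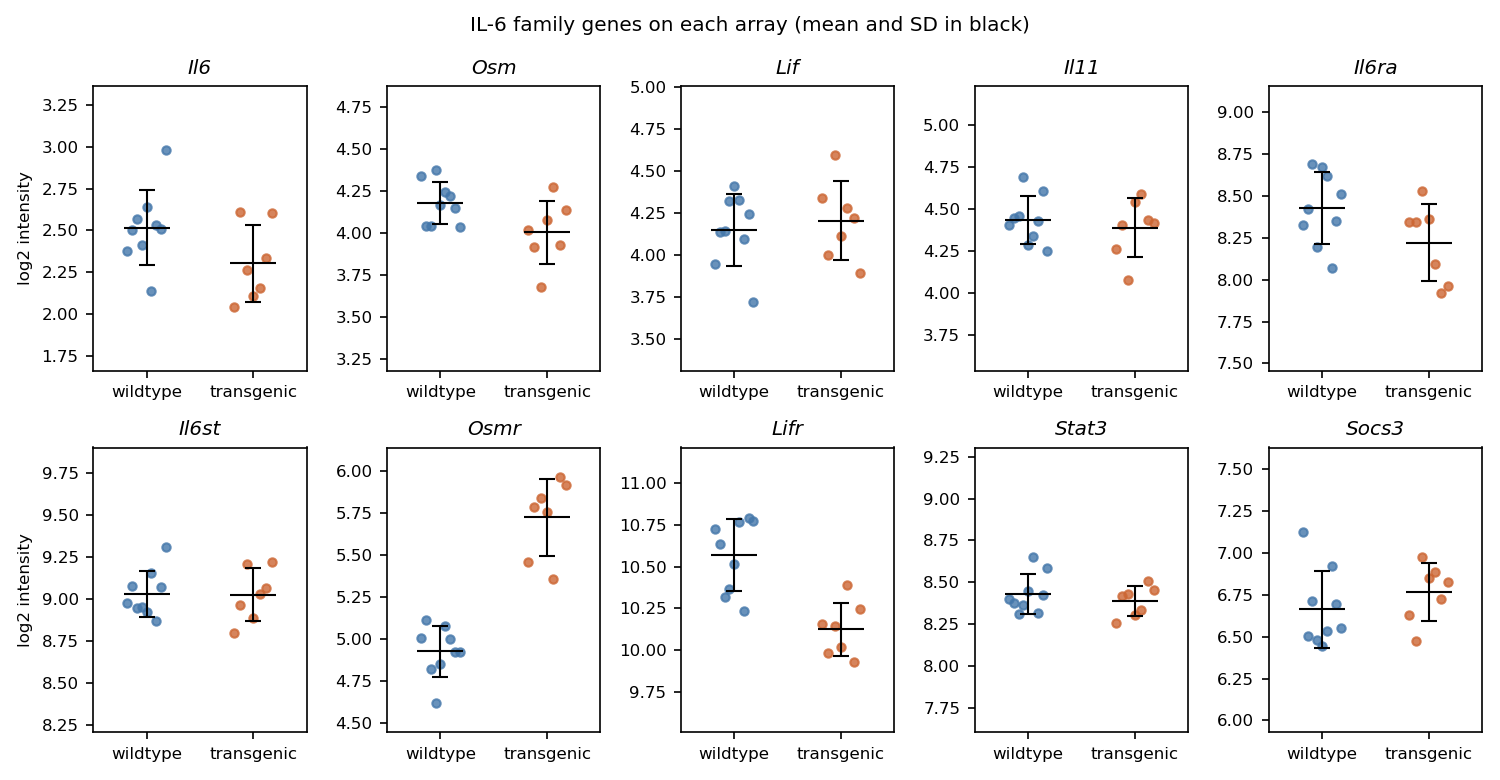
Log2 intensity (y axis) of the 10 members on each of the 9 wildtype and 7 transgenic arrays, 1 panel per gene, each panel spanning the same number of log2 units. Points are arrays, and black marks give the group mean and SD. Osmr is the panel in which all transgenic arrays lie above all wildtype arrays, and in Lifr 5 transgenic arrays lie below them.

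The cytokine genes were dim on every array. Il6, the founding cytokine of the family, ran from 2.05 to 2.61 with a median of 2.27 in the transgenic group and from 2.14 to 2.98 with a median of 2.51 in the wildtype group. All 16 Il6 values lay under 3.45, which is where the dimmest 20% of values in the table end, so the row carries little information on any change. Its difference was -0.21 ± 0.113 (95% interval -0.45 to 0.026, limma adjusted p = 0.225). Osm encodes oncostatin M, which macrophages and neutrophils release. It ran from 3.68 to 4.27 (median 4.02) in transgenic and from 4.04 to 4.37 (median 4.17) in wildtype arrays, and 4 of the 7 transgenic arrays lay below all wildtype ones. The difference, -0.17 ± 0.0837, did not pass the test (interval -0.35 to 0.0015, limma adjusted p = 0.171). In the same arrays the lists of macrophage and neutrophil markers were higher: 6 of 7 monocyte and macrophage markers and 5 of 6 neutrophil markers rose. Their mean log2 levels lay at 6.95 to 7.49 against 5.59 to 6.19 and at 5.16 to 6.30 against 4.13 to 4.49, while 6 of 6 Kupffer cell markers fell (5.10 to 6.16 against 7.19 to 8.11). What part these shifts have in the Osm value was not tested.

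Lif and Il11 showed no separation of the groups. Lif, the leukaemia inhibitory factor gene that lies next to Osm on chromosome 11, ran from 3.89 to 4.60 (median 4.22) in transgenic and from 3.72 to 4.41 (median 4.14) in wildtype arrays. The difference was 0.06 ± 0.11 with an interval of -0.17 to 0.29 (limma adjusted p = 0.785). Il11, a cytokine studied for its action on fibroblasts, ran from 4.08 to 4.59 (median 4.42) and from 4.25 to 4.69 (median 4.43). Its difference of -0.04 ± 0.0834 had an interval of -0.22 to 0.13 (limma adjusted p = 0.774). On the array, a change of 1.5-fold in either direction lies outside the intervals of all 4 cytokine rows. Values near the array's floor understate changes, so the intervals do not bound the change of the transcripts, least of all that of Il6.

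Osmr was the member that moved most. Its values ran from 5.36 to 5.97 with a median of 5.79 on the transgenic arrays and from 4.62 to 5.11 with a median of 4.92 on the wildtype arrays. Every transgenic array was above every wildtype array. The rise was 1.74-fold (0.80 ± 0.0942, interval 0.60 to 1.00, limma adjusted p = 6.02e-06). The product pairs with gp130 to form the oncostatin M receptor. Fibroblasts, stellate cells and endothelial cells are among the cells known to carry it, and not the only ones. In these samples 8 of 9 stellate cell and fibroblast markers rose, and their mean log2 level lay at 8.16 to 8.53 in the transgenic arrays against 6.34 to 6.96 in the wildtype arrays, while the ninth, the pericyte gene Rgs5, fell. Of 6 sinusoidal endothelial markers 5 fell, with mean log2 levels of 6.27 to 6.93 in transgenic and 7.62 to 8.02 in wildtype arrays. What part either list has in the Osmr value was not tested. In bulk RNA a change in the number of cells of a type and a change in RNA per cell cannot be told apart.

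Lifr moved the other way. It ran from 9.93 to 10.39 (median 10.15) in the transgenic and from 10.24 to 10.79 (median 10.64) in the wildtype arrays, so the groups overlapped at 2 transgenic arrays while the other 5 were below all wildtype ones. The fall was 1.36-fold (-0.44 ± 0.09, interval -0.63 to -0.26, limma adjusted p = 0.00153). Its product is the LIF receptor chain, which hepatocytes express. Of 6 hepatocyte markers 3 fell, with a median difference of -0.12, and their mean log2 level lay at 12.57 to 12.71 in transgenic and 12.75 to 12.90 in wildtype arrays. Sinusoidal endothelial markers fell in 5 of 6 cases, at 6.27 to 6.93 against 7.62 to 8.02. What part either has in the Lifr value was not tested.

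Osmr and Lifr, which encode related chains that compete for the same partner, are also close neighbours: no protein-coding gene lies between them on mouse chromosome 15 in GRCm38.p6. Their sequences before the start site are shown because these neighbours changed in opposite directions, and Socs3 is set beside them as the classical STAT3 target. The letters are the 250 bases before the start, 5′ to 3′ on the gene's strand, from RefSeq (GRCm38.p6). Capitals mark the STAT consensus TTCNNNGAA, which reads the same on both strands.
Osmr, chr15:6874314-6874563 (- strand): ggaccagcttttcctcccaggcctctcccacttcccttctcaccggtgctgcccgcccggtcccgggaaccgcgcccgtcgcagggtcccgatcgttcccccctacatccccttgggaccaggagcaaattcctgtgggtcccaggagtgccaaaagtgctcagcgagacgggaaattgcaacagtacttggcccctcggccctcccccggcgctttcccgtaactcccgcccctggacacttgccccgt
Lifr, chr15:7129322-7129571 (+ strand): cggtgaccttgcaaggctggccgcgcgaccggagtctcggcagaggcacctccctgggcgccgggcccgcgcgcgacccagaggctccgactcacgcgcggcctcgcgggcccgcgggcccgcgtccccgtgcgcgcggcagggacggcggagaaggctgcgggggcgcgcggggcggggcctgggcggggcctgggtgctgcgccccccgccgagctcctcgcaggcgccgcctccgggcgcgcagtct
Socs3, chr11:117969367-117969616 (- strand): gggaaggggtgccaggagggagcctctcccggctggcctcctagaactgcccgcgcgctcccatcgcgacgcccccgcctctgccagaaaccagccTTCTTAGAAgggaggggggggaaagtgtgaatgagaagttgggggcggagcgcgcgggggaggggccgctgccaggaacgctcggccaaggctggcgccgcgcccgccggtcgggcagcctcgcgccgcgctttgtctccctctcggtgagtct
The stretch before Lifr held 82.4% G and C, that before Osmr 66.0% and that before Socs3 71.6%. Lifr has another listed start on the same chromosome, not printed here, whose upstream stretch held 50.8% G and C. The consensus was searched with overlapping matches allowed in windows of 300 bases, from 250 before the start to 50 after it. It occurred once in the Socs3 window, as TTCTTAGAA beginning 154 bases before the start, and in none of the other member windows. Windows were listed for 9 of the 10 members, 11 windows in all, and Osm was not matched. Of all 32851 windows in the table, 8.30% held the consensus.

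The chains through which IL-6 itself acts were bright and did not pass the test. Il6ra encodes the IL-6 binding chain and ran from 7.92 to 8.53 (median 8.34) in transgenic and from 8.07 to 8.69 (median 8.42) in wildtype arrays. It differed by -0.21 ± 0.103 (interval -0.42 to 0.010, limma adjusted p = 0.19), with 2 transgenic arrays below all wildtype ones. Il6st, the gene of gp130, ran from 8.80 to 9.22 (median 9.03) and from 8.87 to 9.31 (median 8.97). The difference was -0.0070 ± 0.0706, and the interval, -0.16 to 0.14, bounds a change of this row on the array at less than 1.5-fold in either direction (limma adjusted p = 0.963).

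Stat3 and Socs3 also gave overlapping groups. Stat3 ran from 8.26 to 8.51 (median 8.42) on transgenic and from 8.31 to 8.65 (median 8.40) on wildtype arrays. Its difference was -0.04 ± 0.0553, with an interval of -0.16 to 0.073 and a limma adjusted p of 0.661. The array reads Stat3 RNA and not the phosphorylation by which the protein is switched on. Socs3 ran from 6.48 to 6.98 (median 6.83) and from 6.44 to 7.12 (median 6.55). It is induced within minutes of STAT3 activation, and it differed by 0.10 ± 0.0989 (interval -0.10 to 0.31, limma adjusted p = 0.533). A second Socs3 row, with group means of 5.83 and 5.79, gave 0.05 ± 0.0915 (limma adjusted p = 0.789). The highest Socs3 value of all belonged to wildtype array 1.

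Beyond the members, 11 of 14 other ligands and receptor chains of the family were measured, and 4 rose while none fell, a share of 36.4% against 23.2% of all genes. Centring arrays on their medians, or quantile normalization, gave 3 higher and 1 lower instead. Of the 11, 6 lay at or below the table median, where 8.75% of genes were called, against 33.8% above it. Lepr and Csf3r, with means of 5.09 and 5.02 over all arrays, were among the dimmer ones. This list and those that follow were chosen with earlier results of these data known, so their shares called are descriptions. All 4 that rose encode receptor chains, and the fifth measured chain, Il31ra, was not called (-0.12 ± 0.068, limma adjusted p = 0.241). Lepr, the leptin receptor, is built like gp130 and also signals through STAT3. It ran from 5.51 to 7.32 (median 6.03) in transgenic and from 3.90 to 4.87 (median 4.19) in wildtype arrays. Its rise of 3.79-fold (1.92 ± 0.217, limma adjusted p = 3.78e-06) was the largest of the list, and the groups did not overlap. The transgenic arrays also differed among themselves in Lepr, with an SD of 0.634 against 0.303 in wildtype. Cntfr encodes the anchored binding chain for ciliary neurotrophic factor, whose complex contains gp130 and the LIF receptor. It ran from 6.19 to 7.06 (median 6.54) against 5.58 to 5.90 (median 5.68), a rise of 1.88-fold without overlap (0.91 ± 0.105, limma adjusted p = 4.49e-06). Csf3r, the granulocyte colony-stimulating factor receptor of neutrophils, rose 1.23-fold (0.30 ± 0.0795, limma adjusted p = 0.0106), beside the neutrophil markers already given. Il27ra, the chain that binds IL-27, rose 1.17-fold (0.22 ± 0.0737, limma adjusted p = 0.0431) and was named after its value was seen. It lost its call in 15 of 25 alternatives (limma adjusted p from 0.0193 to 0.155). The measured ligands of the list, Ctf1, Clcf1, Il27, Ebi3, Il31 and Csf3, were not called and differed by -0.16 (Il31) to 0.14 (Clcf1). The list's median difference was -0.03.

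**Figure D2:**
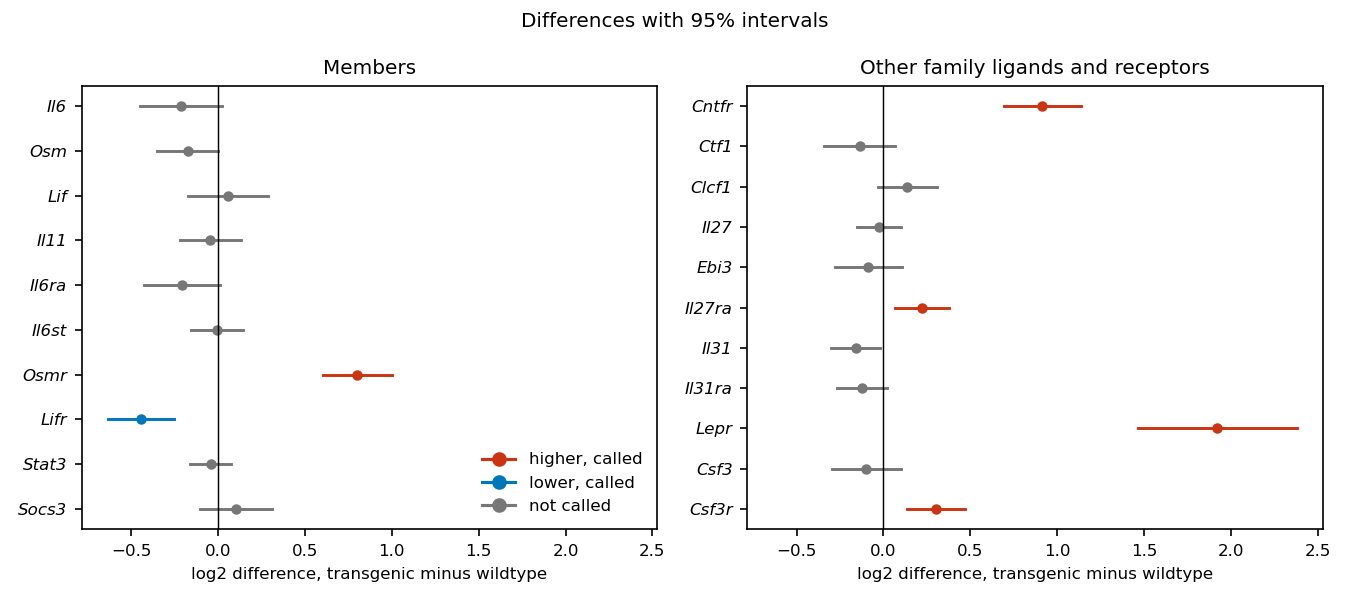
Log2 difference, transgenic minus wildtype (x axis), of the 10 members (left) and the 11 other measured family ligands and receptor chains (right), with 95% intervals from the limma fit. Red marks genes called higher, blue lower and grey not called. The called genes are all receptor chains, from Lifr at -0.44 to Lepr at 1.92.

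Among the kinases, STATs and regulators of the pathway, 27 of 29 were measured, and 4 rose and 1 fell. Leaving out wildtype array 4 gave 2 that fell. Socs5, a relative of Socs3, rose 1.4-fold without overlap, from 6.99 to 7.42 in wildtype to 7.55 to 7.79 in transgenic arrays (0.49 ± 0.0589, limma adjusted p = 7.99e-06). Adam10, a protease able to shed Il6ra from the cell surface, rose 1.24-fold (0.31 ± 0.0766, limma adjusted p = 0.00762). Adam17, on the same list and named after its value was seen, was not called (0.02 ± 0.0669, limma adjusted p = 0.876). Stat6, the transcription factor of IL-4 and IL-13 signalling, rose 1.22-fold without overlap (0.29 ± 0.051, limma adjusted p = 0.000428). Jak1, the kinase on which gp130 signalling chiefly relies, was named after its value was seen and rose 1.10-fold (0.14 ± 0.0393, limma adjusted p = 0.0146). It lost its call with arrays centred on their medians and with the replicate block (limma adjusted p at most 0.176). Pias4, which encodes an inhibitor of activated STATs, fell 1.21-fold with all 7 transgenic arrays below all wildtype ones (-0.27 ± 0.0564, limma adjusted p = 0.00184). The share called, 18.5%, was below the 23.2% of all genes and the 33.8% of those above the table median, where all but 1 of the 27 lay. The median difference was 0.04.

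Genes that STAT3 is known to activate in many cell types moved in both directions. Of 20, 6 rose and 3 fell, a share called of 45% against 23.2% of all genes and 33.8% of those above the table median, where all but 2 of them lay, and the median difference was 0.06. Quantile normalization gave 5 in each direction, and the fit with the replicate number as a block, a pairing the arrays did not bear out, gave 4 higher and 5 lower. Mcl1, which protects cells from apoptosis, rose 1.4-fold (0.49 ± 0.059, limma adjusted p = 8.09e-06), with 6 of 7 transgenic arrays above all wildtype ones. Ccnd1, the cyclin D1 gene, rose 1.41-fold (0.50 ± 0.151, limma adjusted p = 0.0269), and Cebpd, a transcription factor of the acute phase response, 1.31-fold (0.39 ± 0.123, limma adjusted p = 0.0319). Birc5, Icam1 and Timp1 were the other 3 that rose. Myc, whose difference was named after it was seen, had the largest difference of the list but was not called. It stood at 0.82 ± 0.301 with overlapping groups (limma adjusted p = 0.0667). Pim3, a survival kinase, fell 1.43-fold without overlap, from 8.09 to 8.60 in wildtype to 7.60 to 7.99 in transgenic arrays (-0.52 ± 0.0809, limma adjusted p = 0.000125). Bcl3 and Zfp36, regulators of inflammatory transcripts, stood at -0.36 ± 0.104 and -0.31 ± 0.0961 (limma adjusted p-values 0.0177 and 0.0309). Cebpd lost its call in 9 of 25 alternatives, Zfp36 in 6, Ccnd1 in 3 and Icam1 in 1, and Timp1 in 3 of 24.

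The hepatic acute phase genes, the output for which IL-6 signalling in the liver is best known, were lower more often than higher. Of 26, 12 fell and 1 rose, a share called of 50% against the same 23.2% and 33.8%, with all but 2 above the table median, and the median difference was -0.17. Like the other lists, this one was chosen with earlier results of these data known. Saa4, the constitutive serum amyloid A gene, fell 1.78-fold without overlap, from 10.57 to 11.24 in wildtype to 9.73 to 10.40 in transgenic arrays (-0.83 ± 0.101, limma adjusted p = 8.57e-06). Lbp, whose product binds lipopolysaccharide, fell 1.58-fold without overlap (-0.66 ± 0.121, limma adjusted p = 0.000625). Orm2, an orosomucoid gene, stood at -0.66 ± 0.216 (limma adjusted p = 0.0382) and lost its call in 10 of 25 alternatives. Steap4, a metalloreductase gene, was the gene that rose (0.49 ± 0.139, limma adjusted p = 0.0168). It lost its call with the replicate block. Saa1, Saa2 and Lcn2, which inflammation induces, were not called. Saa1 ran from 8.63 to 10.39 in transgenic and from 7.82 to 9.89 in wildtype arrays. Its difference was 0.26 ± 0.305, and those of Saa2 and Lcn2 were 0.67 ± 0.279 and 0.58 ± 0.256 (limma adjusted p-values 0.632, 0.109 and 0.135). Without wildtype array 1, Saa2 passed (0.80, limma adjusted p = 0.0463). Saa1 and Saa2 are near-identical in sequence, so their rows may share signal. The hepatocyte markers given beside Lifr moved the same way as the 12 that fell, and their part was not tested.

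**Figure D3:**
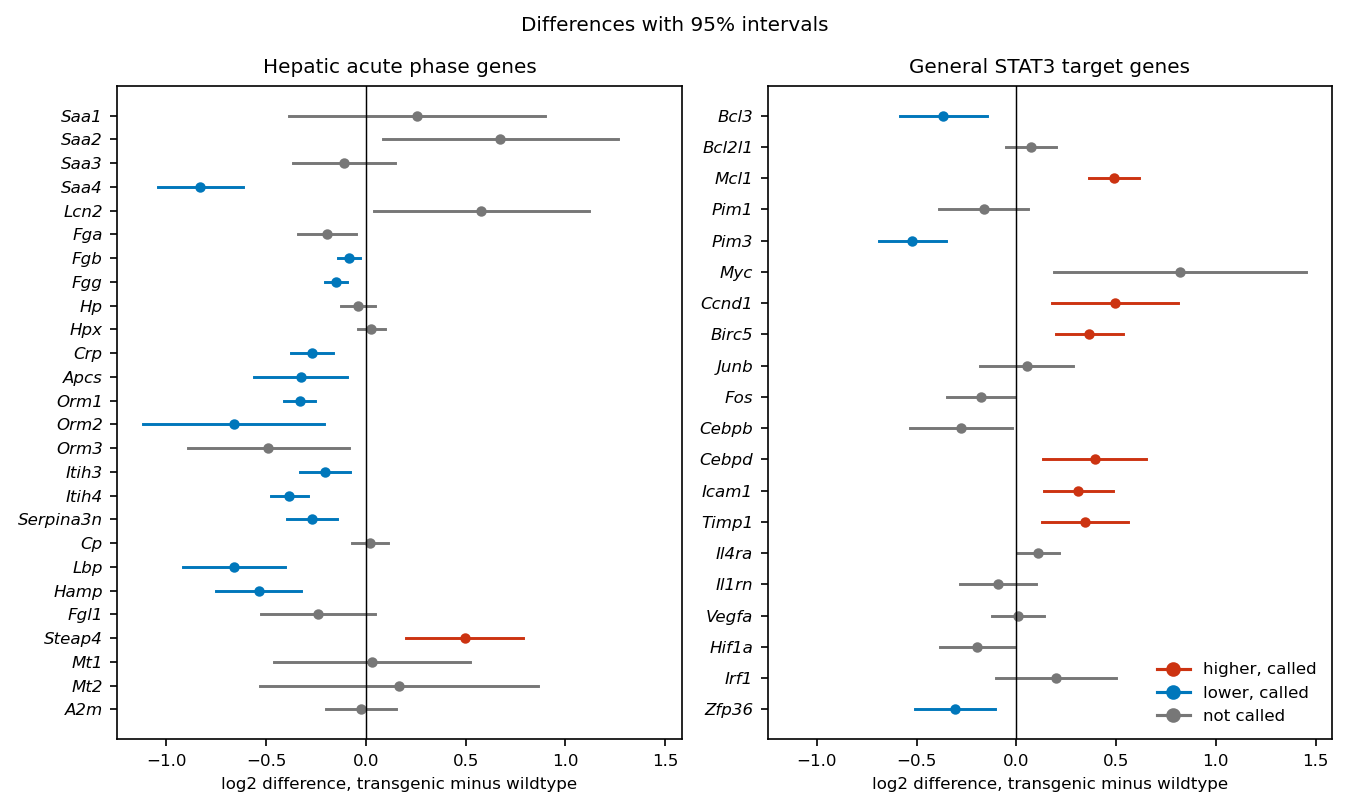
Log2 difference, transgenic minus wildtype (x axis), of 26 hepatic acute phase genes (left) and 20 general STAT3 target genes (right), with 95% intervals from the limma fit. Red marks genes called higher, blue lower and grey not called. Acute phase genes that were called lie left of 0 apart from Steap4, while the general targets lie on both sides.

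Within the 300-base windows, 6 of the 21 acute phase genes that could be matched held the STAT consensus, and 27.3% of their 22 windows did, against 8.30% of all windows. The other lists lay nearer that share. The consensus was in 12.5% of 24 windows of general STAT3 targets, 11.1% of 27 of JAK-STAT genes and 6.25% of 16 of other family genes. Stretches of 41 bases around the consensus are shown for 3 acute phase genes that fell and for Steap4, to set their letters beside the Socs3 match.
Fgb, chr3:83050001-83050041 (- strand): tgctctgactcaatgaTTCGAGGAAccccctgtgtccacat
Hamp, chr7:30944102-30944142 (- strand): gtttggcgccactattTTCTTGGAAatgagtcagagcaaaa
Itih4, chr14:30886409-30886449 (+ strand): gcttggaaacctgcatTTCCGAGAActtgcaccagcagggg
Steap4, chr5:7960340-7960380 (+ strand): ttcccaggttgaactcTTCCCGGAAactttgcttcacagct
Fgb, which encodes a fibrinogen chain, stood at -0.08 ± 0.0254, Hamp, the hepcidin gene, at -0.54 ± 0.102, and Itih4, an inter-alpha-trypsin inhibitor chain, at -0.38 ± 0.0434 (limma adjusted p-values 0.0256, 0.00081 and 3.78e-06). These were named after their values were seen. Fgb lost its call in 6 of 25 alternatives. Of the other 2 acute phase genes with the consensus, Apcs stood at -0.33 ± 0.111 (limma adjusted p = 0.0474, lost in 17 of 25 alternatives) and Fga was not called. A match in letters does not show that STAT3 binds there.

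Because Socs3 is a known STAT3 target, its array-to-array variation was compared with that of Stat3, Il6, Osmr, Il6st, Saa1, Lcn2 and Myc within each group, 14 relations in all. STAT3 activity itself was not measured. In the 9 wildtype arrays Socs3 and Myc, an early growth gene, varied together at Pearson's r = 0.873 (exact permutation p = 0.00163, adjusted 0.0228 over the 14). Spearman's rho was 0.767 (exact permutation p = 0.0214, adjusted 0.299). Without the 2 arrays farthest from the median of Socs3, r was 0.646 over 7 arrays and no longer passed, so the call depends on those arrays. Leaving them out also narrows the range of Socs3. In the 7 transgenic arrays r was 0.563 (exact permutation p = 0.186, adjusted 0.945) and rho 0.464 (exact permutation p = 0.302, adjusted 0.904), and r was -0.40 without the 2 farthest. None of the other 12 relations passed. With Saa1, r was -0.11 in wildtype (exact permutation p = 0.781, adjusted 0.975; rho -0.32, exact permutation p = 0.41, adjusted 0.904). It was -0.09 in transgenic arrays (exact permutation p = 0.835, adjusted 0.975; rho -0.46, exact permutation p = 0.302, adjusted 0.904). With Stat3, r was -0.36 in wildtype (exact permutation p = 0.339, adjusted 0.945; rho -0.33, exact permutation p = 0.385, adjusted 0.904). It was 0.041 in transgenic arrays (exact permutation p = 0.929, adjusted 0.975; rho 0.071, exact permutation p = 0.906, adjusted 0.976). Without the 2 arrays farthest from the median of Socs3, the r with Saa1 was -0.71 in wildtype and -0.13 in transgenic arrays, and that with Stat3 was -0.26 and -0.43.

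**Figure D4:**
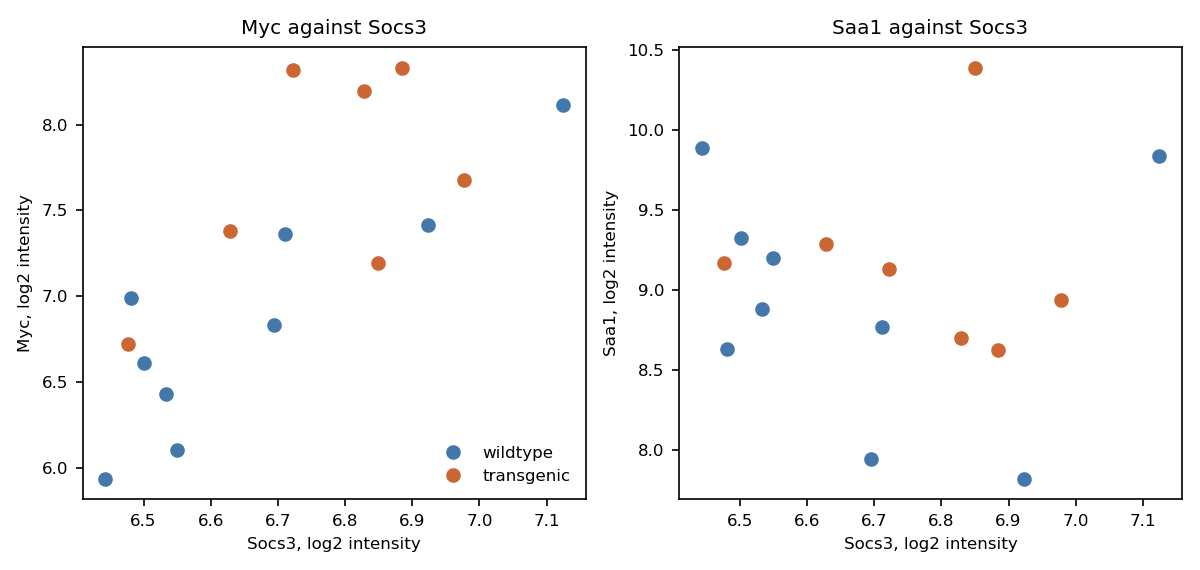
Log2 intensity of Myc (left) and Saa1 (right) on the y axes against that of Socs3 on the x axes, 1 point per array, with 9 wildtype arrays in blue and 7 transgenic arrays in orange. Myc rises with Socs3 among the wildtype arrays (r = 0.873, or 0.646 without the 2 farthest), and Saa1 does not (r = -0.11, or -0.71 without the 2 farthest).

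The pattern of Osmr, the called member that changed at least 1.5-fold, was compared with all genes above the median of the table after group means were subtracted. Over the 16 arrays the most alike were Mtdh (Pearson's r = 0.858) and Itsn1 (0.834), which themselves differed by -0.11 and 0.06 between the groups (limma adjusted p-values 0.236 and 0.378). These are the highest values among all the genes compared and are given as a description.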

How the data were processed

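Liver RNA of 16 mouse samples, 7 Pdgf-c transgenic and 9 wildtype by their titles, was measured on the Mouse Gene 1.0 ST array of Affymetrix, as the labels' protocols state. The deposited values are log2 intensities that the authors made with GCRMA, per the submitters' processing notes; the version and settings are not given in the sources used here, and the log base was read from the range of 0.71 to 14.7. GCRMA pulls dim rows towards a floor, which shrinks their differences. For arrays, their number limits the precision. Scanner files and scan batches were not analysed here. Of 35557 rows, 21789 carried 1 symbol, and the brightest row stood for each of 19938 genes. Entrez identifiers of 21698 rows matched the GRCm38.p6 gene table, and 0 symbols changed. Promoter sequences came from RefSeq (GRCm38.p6).

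The comparison used lmFit and eBayes (trend on, two-sided tests, no filter) of limma 3.58.1 under R 4.3.3, with 14 residual degrees of freedom and Benjamini-Hochberg adjustment over all rows and a threshold of 0.05. The fit was tested on simulated data. Relations to Socs3 used two-sided exact permutation tests. Members and gene lists were chosen with earlier results of these data known. The rule for named genes took all members, up to 3 called genes per list and direction by size of difference, and the 2 genes most like each called member that changed 1.5-fold or more; others are marked as named after their values were seen. Alternatives changed the scaling (quantile normalization or median-centred arrays), the rows kept (those brighter than the table median, or a floor at the 20th percentile), the fit (no trend, array weights, a block for the replicate number), the row per gene (their mean) or the arrays (each left out once). Dropping both transgenic array 1 and wildtype array 9 was chosen after seeing the data. Plots used matplotlib 3.10.9.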

Additional observations from a re-analysis of the deposited data

Results flagged for a closer look

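Of 54 groups of arrays tested (27 named genes in 2 groups), 4 had 1 array far from the others by Dixon's criterion, and chance gives about 1 in 20. Transgenic array 1 was the lowest of its group in Adam10 (7.17, group median 7.49) and in Pias4 (6.61, median 6.93). Transgenic array 4 was the highest in Csf3r (5.43, median 5.18). Wildtype array 9 was the highest in Mcl1 (10.45, median 10.20). No member of the IL-6 family list had such an array in either group. The calls of these 4 genes held in all 25 alternatives run for Adam10, Pias4 and Mcl1 and in all 24 run for Csf3r.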

How the results depend on the processing

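Osmr stayed higher and Lifr lower, each past the threshold, in all 25 alternatives (Osmr 0.74 to 0.86, Lifr -0.49 to -0.38), and every alternative called exactly these 2 members. Members that were not called changed sign in some: Lif ran from -0.0088 (without transgenic array 3) to 0.11 without single arrays and stood at -0.020 without both ends of the second principal component, and Il11 ran from -0.078 to 0.0078 (without transgenic array 3). Il6st stood at 0.030 after quantile normalization, 0.021 with array weights, 0.039 with the replicate block, 0.066 without both ends of the second principal component, and at -0.040 to 0.031 without single arrays. With a floor at the 20th percentile Il6 had no value. With arrays centred on their medians 4688 rows were lower instead of 2936, and 38.0% of called rows were higher instead of 56.3%. Among other family genes 2 were higher on rows above the median, since only those were tested, and 1 was lower after quantile normalization or centring. JAK-STAT genes that were lower numbered 2 after centring or with the floor, and 1 to 2 without single arrays. General targets that were lower numbered 5 after quantile normalization and 5 with the replicate block. Acute phase genes that were higher numbered 0 with the replicate block and 1 to 2 without single arrays, 2 without wildtype array 1. The cause of these shifts was not tested. The replicate numbers did not pair the arrays: deviations of same-numbered arrays correlated at -0.019 to 0.086 over 7 pairs. The block gave 3487 rows higher and 2237 lower. For the relations to Socs3, quantile normalization turned Stat3 (-0.38) and Osmr (-0.14) in the transgenic group. Without the 2 farthest arrays r was 0.036 for Il6, 0.037 for Il6st and 0.646 for Myc in wildtype, and -0.43 for Stat3, -0.37 for Osmr and -0.40 for Myc in transgenic arrays. Dim rows limit what can be said of the cytokines.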
